A study of Mus musculus with 12 samples.

Results

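The mitochondrial respiratory chain subunits were the 83 genes whose name in the scanner files begins with Ndufa, Ndufb, Ndufc, Ndufs, Ndufv, Uqcr, Cox4 to Cox8 or Atp5, or is Sdha, Sdhb, Sdhc, Sdhd, Cyc1 or Cycs, with Ndufaf assembly factors left out. They were read by 116 of the 41174 transcript probes and made up 83 of 27666 gene names on the array. Of these genes 36 belong to complex I, 4 to complex II, 8 to complex III, 18 to complex IV and 16 to complex V by name, and Cycs encodes cytochrome c. Ndufa4 is counted with complex I by name, although it is now described as a subunit of complex IV. The name rule also takes in 3 tested genes that are not structural subunits: Dmac2l (Atp5s in the files), Emc8 (Cox4nb in the files), and Cox7a2l. The 13 subunits encoded by mitochondrial DNA had no tested probe.

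The respiratory chain passes electrons from NADH through complex I (NADH dehydrogenase), or from succinate through complex II, to coenzyme Q, then through complex III (cytochrome bc1 complex) and cytochrome c to complex IV (cytochrome c oxidase), where oxygen is reduced. Complexes I, III and IV pump protons across the inner mitochondrial membrane, and complex V (ATP synthase) uses the gradient to make ATP. Cardiomyocytes are packed with mitochondria, and the transcripts of these subunits are among the most abundant nuclear transcripts of the heart.

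Whole hearts of male C57BL/6 mice were profiled on 12 one-colour Agilent arrays, with 3 hearts in each of 4 groups: cardioGRMRdKO at 2 months, cardioGRMRdKO at 1 month, dflox at 2 months and dflox at 1 month. All mice carried floxed alleles of both the glucocorticoid receptor (GR, gene Nr3c1) and the mineralocorticoid receptor (MR, gene Nr3c2), and cardioGRMRdKO mice also carried αMHC-Cre, which deletes them in cardiomyocytes. The dflox mice were littermates without Cre, so that the series text describes no group with Cre alone, and it does not name the deleted exons. Each heart is 1 mouse, and all other heart cells keep both receptors.

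A level is the log2 processed signal of a gene's brightest probe minus the 75th percentile of its array, so 0 is that percentile. Genes were tested with limma on 4 group means over all 12 arrays, with p-values adjusted (Benjamini-Hochberg) over 18250 genes, and a gene passed at an adjusted p under 0.05. Of the 83 genes 82 passed the filter on dim probes. Cox8c, a testis isoform of complex IV, did not. The brightest probe of 81 genes was well above background on all 12 arrays, and that of Cox4i2, the hypoxia-inducible isoform of subunit 4, on 9. Outlier spots left 13 of the 82 genes without a value on at least 1 array, and means over genes use the other 69.

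Nr3c1 had levels of 1.44, 1.15 and 1.18 in cardioGRMRdKO hearts at 2 months, against 2.51, 2.18 and 2.39 in dflox hearts. Its levels at 1 month were 1.35 and 1.51 in the 2 cardioGRMRdKO hearts with a value, against 2.27 and 2.05 in the 2 dflox hearts with a value. Nr3c1 fell by 0.92 (SE 0.109, adjusted p = 0.00232, limma) averaged over both ages, with differences of -1.10 at 2 months (adjusted p = 0.00565) and -0.73 at 1 month (adjusted p = 0.119). Nr3c2 was dim in every heart and differed by -0.20 (adjusted p = 0.807), so that its probe does not check the labels, and either probe may lie outside the deleted exons. The arrays had 63.7% to 71.9% of their 43379 transcript spots well above background and no saturated spot, and their 75th percentile of processed signal ranged between 479 and 1079 intensity units. The highest was the third cardioGRMRdKO heart at 2 months. All 12 cardiomyocyte markers were tested, as were 7 of 8 airway epithelium markers, with Sftpb not well above background on any array. The mean level of the 6 airway markers with all values was 2.66, -3.44 and 2.89 in cardioGRMRdKO hearts at 2 months, against -0.88, -2.94 and 3.37 in dflox hearts. In hearts of 1 month it was -0.95, -1.16 and -3.03 in cardioGRMRdKO hearts, against 2.17, 2.94 and 2.80 in dflox hearts, with no overlap. The part of airway tissue in the differences described here was not tested.

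The first comparison was the effect of the double deletion at each age. Respiratory chain transcripts had medians below 0 in all 5 complexes at both ages, meaning lower in cardioGRMRdKO hearts, by a small amount per gene, and further below at 2 months than at 1 month. At 2 months 79 of 82 members had a difference below 0 with a median of -0.313, against 63.0% of all genes tested with a median of -0.095. At 1 month 73 of 82 were below 0 with a median of -0.113, against 50.3% of all genes with a median of -0.0011. No single member passed the test at either age, where 2.31% of all genes passed at 2 months and 0.981% at 1 month (limma). As lower, 1.21% of all genes passed at 2 months and 0.542% at 1 month. At an unadjusted p under 0.05 there were 32 members and 2853 genes at 2 months, and 2 members and 1713 genes at 1 month. Averaged over both ages 79 of 82 were below 0 with a median of -0.201, against 61.1% of all genes with a median of -0.058. In that comparison 2 members passed, Ndufv2 and Atp5d, both lower, where 4.49% of all genes passed and 2.24% passed as lower. Neither passed under array median scaling, without the filter on dim probes or with no scaling, nor when 1 heart was left out that was any cardioGRMRdKO heart of 1 month, the second cardioGRMRdKO or dflox heart of 2 months, or the first or second dflox heart of 1 month. No member passed without slide 1, slide 2 or slide 3 either. A difference of the same sign was therefore shared by most members, and few members passed singly. In whole hearts, fewer cardiomyocytes and less of these RNAs per cardiomyocyte cannot be told apart.

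**Figure D1:**
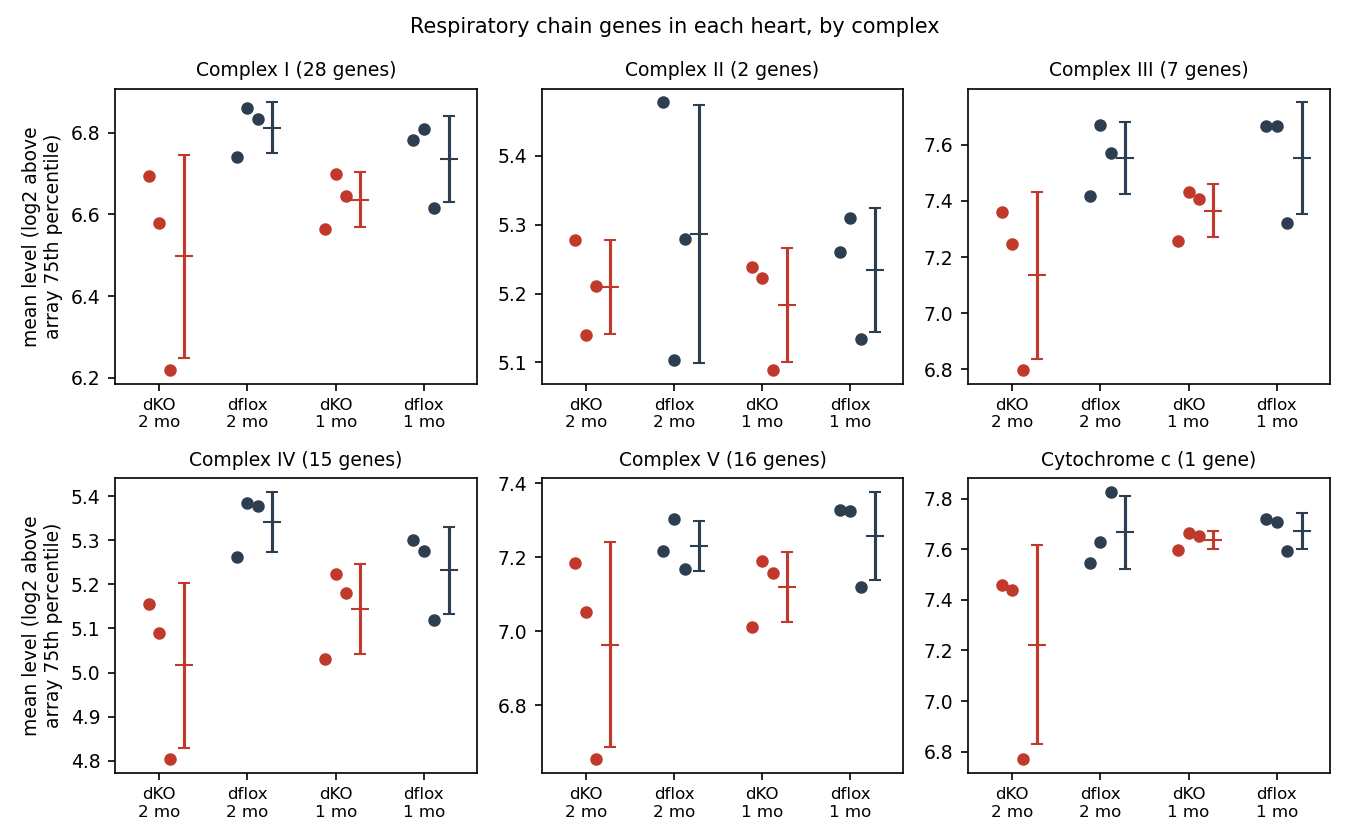
Mean level of the members of each complex in each heart (y axis, log2 above the 75th percentile of the array) for cardioGRMRdKO hearts (dKO, red) and dflox hearts (dark) at 2 months and 1 month. Points are hearts and bars are mean ± SD (n = 3), over the members with a value on every array. In complexes I, III and IV every cardioGRMRdKO heart at 2 months lies below every dflox heart of that age, and complex II shows overlapping groups at both ages.

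Over the 69 members with all values, the mean level was 6.51, 6.40 and 6.05 in cardioGRMRdKO hearts at 2 months, against 6.57, 6.68 and 6.64 in dflox hearts. The corresponding 1-month values were 6.38, 6.54 and 6.49 in cardioGRMRdKO hearts, against 6.65, 6.65 and 6.45 in dflox hearts. The groups did not overlap at 2 months and overlapped at 1 month through the third dflox heart. The third cardioGRMRdKO heart at 2 months was the lowest of all 12. Without it, 74 of 82 members remained below 0, with a median of -0.164, against 59.7% of all genes and a median of -0.055.

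Over the members with all values, complex I averaged 6.5 ± 0.248 in cardioGRMRdKO hearts and 6.81 ± 0.062 in dflox hearts at 2 months, and 6.64 ± 0.067 in cardioGRMRdKO hearts and 6.74 ± 0.105 in dflox hearts at 1 month (log2 level, SD, n = 3 hearts each here and below). Complex II, held by Sdha and Sdhc alone, averaged 5.21 ± 0.069 in cardioGRMRdKO hearts and 5.29 ± 0.187 in dflox hearts at 2 months, and 5.18 ± 0.082 in cardioGRMRdKO hearts and 5.23 ± 0.091 in dflox hearts at 1 month. Complex III averaged 7.14 ± 0.298 in cardioGRMRdKO hearts and 7.55 ± 0.128 in dflox hearts at 2 months, and 7.37 ± 0.094 in cardioGRMRdKO hearts and 7.55 ± 0.199 in dflox hearts at 1 month. Complexes I and III thus had cardioGRMRdKO hearts below all dflox hearts at 2 months and overlapping groups at 1 month, and complex II overlapped at both ages. Complex IV averaged 5.02 ± 0.187 in cardioGRMRdKO hearts and 5.34 ± 0.069 in dflox hearts at 2 months, and 5.14 ± 0.102 in cardioGRMRdKO hearts and 5.23 ± 0.099 in dflox hearts at 1 month. Complex V averaged 6.96 ± 0.277 in cardioGRMRdKO hearts and 7.23 ± 0.068 in dflox hearts at 2 months, and 7.12 ± 0.095 in cardioGRMRdKO hearts and 7.26 ± 0.120 in dflox hearts at 1 month. Complex IV was separate at 2 months and overlapped at 1 month, while complex V overlapped at both ages. In complexes I, III, IV and V the cardioGRMRdKO group at 2 months had the widest spread of the 4 groups, and the third heart was its lowest.

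By complex, the median difference at 2 months was largest for complex III, at -0.37, with 8 of 8 members below 0. Complex I had -0.30 with 35 of 36 below 0, complex V -0.29 with 16 of 16, and complex IV -0.27 with 16 of 17. Complex II, which pumps no protons and has all its subunits encoded in the nucleus, had -0.18 with 3 of 4 below 0. Cycs had -0.44 by its brightest probe, but -0.24 and -0.19 by its other probes. At 1 month the medians were -0.21 for complex III, -0.12 for complexes IV and V, -0.096 for complex I and -0.051 for complex II, and Cycs had -0.036. Differences within a complex spread widely at 2 months: between -0.76 and -0.11 in complex III, -0.69 and 0.019 in complex IV, -0.56 and 0.015 in complex I, -0.43 and -0.036 in complex V, and -0.38 and 0.12 in complex II. The complexes therefore overlapped in the differences of their members, and the order of their medians was not tested.

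**Figure D2:**
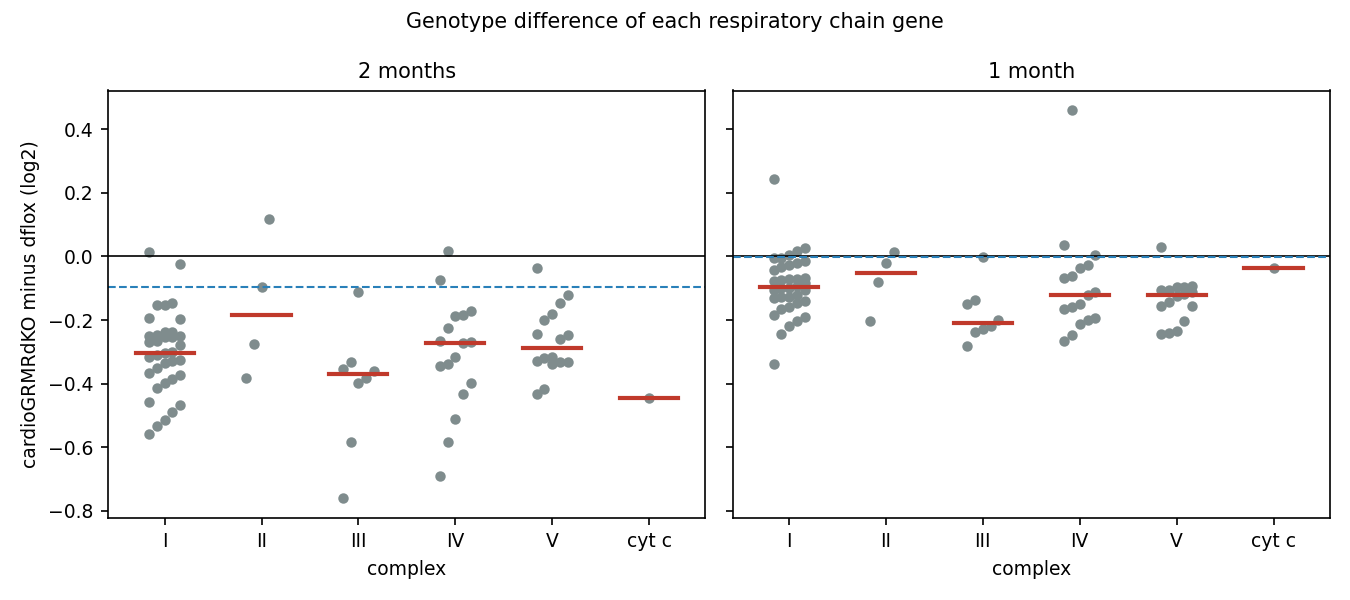
Log2 difference of cardioGRMRdKO minus dflox (y axis) for each of the 82 tested members (grey points) by complex, at 2 months (left) and 1 month (right). Red lines are medians of the complex and the dashed blue line is the median of all genes tested. At 2 months all medians lie below the blue line, at -0.095, and 3 of the 82 points lie above 0.

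Complex I was represented by members of its electron input module (Ndufv1, Ndufv2, Ndufs1), its quinone module (such as Ndufs3, Ndufs7 and Ndufs8) and many accessory subunits. Ndufv2, an iron-sulfur subunit next to the flavin site, had levels of 5.64, 5.47 and 5.19 in cardioGRMRdKO hearts at 2 months, against 5.77, 5.87 and 5.90 in dflox hearts. At 1 month its levels were 5.48, 5.35 and 5.42 in cardioGRMRdKO hearts, against 5.66, 5.79 and 5.81 in dflox hearts. Its groups did not overlap at either age. Ndufv2 fell by 0.38 averaged over both ages (SE 0.0849, adjusted p = 0.0336, limma), or 1.30-fold, with differences of -0.41 at 2 months and -0.34 at 1 month. Its probe lies at chr17:64306861-64307002 of mm7, the build of the array files. Ndufb4, an accessory subunit of the membrane arm, had 6.70, 6.59 and 6.31 in cardioGRMRdKO hearts at 2 months, against 6.87, 6.91 and 7.19 in dflox hearts. Its groups were also separate at 1 month, but its averaged difference of -0.30 did not pass (adjusted p = 0.10). The probe of Ndufa13, a membrane arm subunit and the brightest of complex I, had 8.16, 8.0 and 7.62 in cardioGRMRdKO hearts at 2 months, against 8.13, 8.20 and 8.24 in dflox hearts, with overlapping groups. At 1 month Ndufa13 had 7.94, 8.13 and 8.07 in cardioGRMRdKO hearts and 8.18, 8.20 and 7.96 in dflox hearts.

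The most negative differences of complex I at 2 months were in accessory subunits: Ndufa12 at -0.56 (adjusted p = 0.299), Ndufa8 at -0.53 (adjusted p = 0.284) and Ndufb10 at -0.51 (adjusted p = 0.250). Other probes of Ndufa12 had -0.44 and -0.21 at that age, so its place depends on the probe. Ndufa8 and Ndufb10 are subunits with disulfide-bonded CHCH folds. Ndufa8 had 5.70, 5.95 and 4.98 in cardioGRMRdKO hearts at 2 months, against 5.84, 6.14 and 6.23 in dflox hearts, so that its mean rested in large part on the third cardioGRMRdKO heart and the groups overlapped. Of the electron input module, Ndufs1 differed by 0.015 at 2 months and Ndufv1, which binds the flavin, by -0.24. Ndufs1 was the only complex I member not below 0 at that age, but it has no value for the third cardioGRMRdKO heart, and its levels were 6.80 and 6.74 in the other cardioGRMRdKO hearts, against 6.92, 6.76 and 6.58 in dflox hearts. Ndufa11, a membrane subunit, had the highest averaged difference of complex I, at 0.11 (adjusted p = 0.668). It had 4.67, 4.25 and 4.27 in cardioGRMRdKO hearts at 2 months against 4.42 and 4.41 in the 2 dflox hearts with a value, and 4.55, 4.63 and 4.72 against 4.51, 4.55 and 4.11 in dflox hearts at 1 month.

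**Figure D3:**
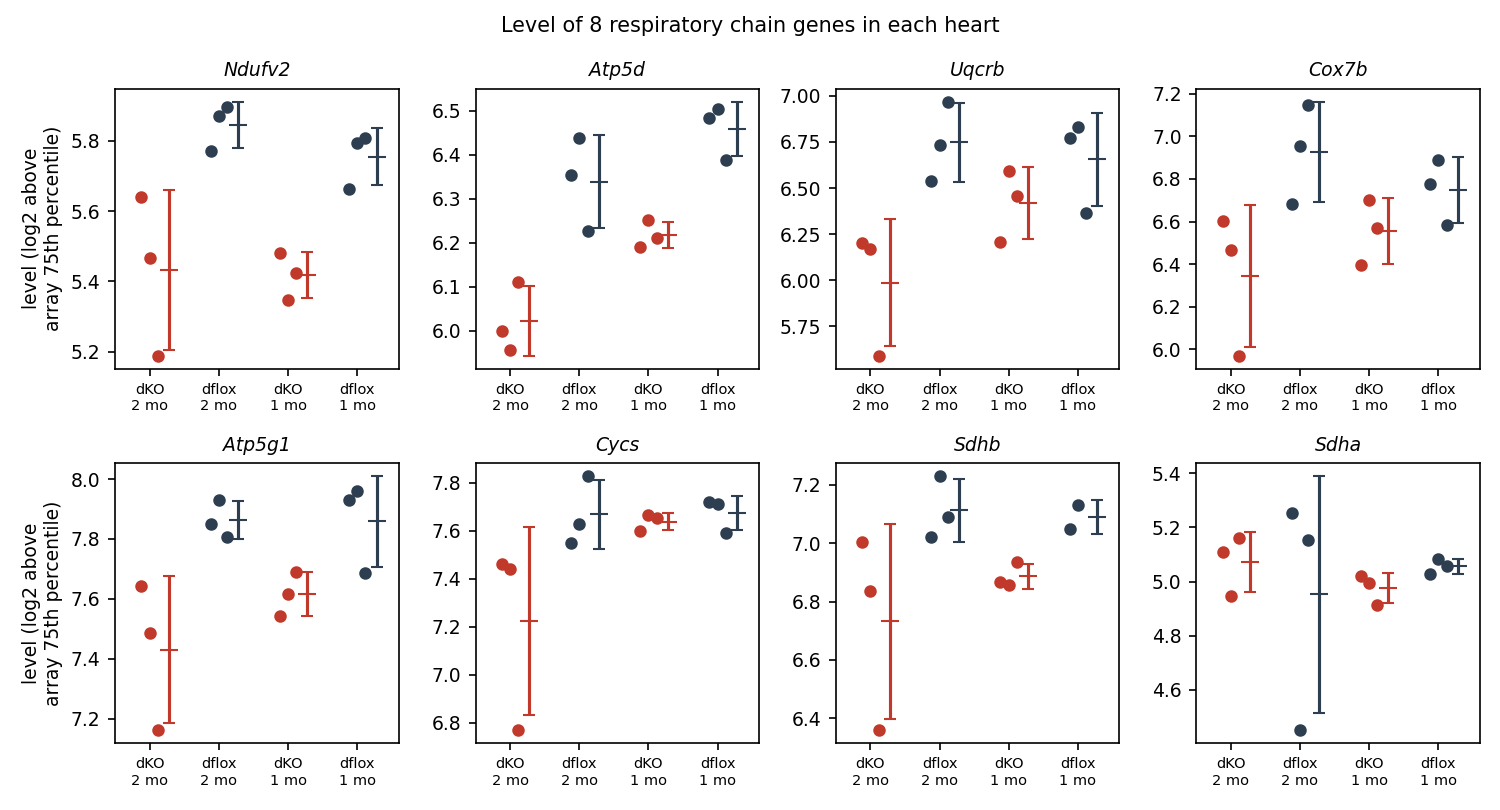
Level in each heart (y axis, log2 above the 75th percentile of the array) of 8 members in cardioGRMRdKO hearts (dKO, red) and dflox hearts (dark) at 2 months and 1 month. Points are hearts and bars are mean ± SD, with n = 3 except for Sdhb in dflox hearts at 1 month, where 1 value is missing. Ndufv2 and Atp5d show separate genotypes at both ages, and Sdha overlaps at 2 months.

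Complex II is succinate dehydrogenase, which is also an enzyme of the citric acid cycle. Its iron-sulfur subunit Sdhb, with the brightest probe of the 4, had 7.0, 6.84 and 6.36 in cardioGRMRdKO hearts at 2 months, against 7.02, 7.23 and 7.09 in dflox hearts. At 1 month it had 6.87, 6.86 and 6.94 in cardioGRMRdKO hearts, against 7.05 and 7.13 in the 2 dflox hearts with a value. The groups did not overlap at either age, but at 2 months only by a small margin, 7.0 against 7.02 in the nearest hearts. At 1 month only 2 dflox hearts had a value, a looser condition. The averaged difference of Sdhb, -0.29, did not pass (adjusted p = 0.236, limma). Sdha, the flavoprotein with the succinate site, had 5.11, 4.95 and 5.16 in cardioGRMRdKO hearts at 2 months, against 5.26, 4.45 and 5.15 in dflox hearts. Its levels at 1 month were 5.02, 4.99 and 4.91 in cardioGRMRdKO hearts, against 5.03, 5.08 and 5.06 in dflox hearts. Its averaged difference was 0.019 (adjusted p = 0.953). The membrane anchors Sdhc and Sdhd, which hold the quinone site, differed by -0.27 and -0.095 at 2 months, and neither passed (adjusted p = 0.343 for Sdhc and 0.807 for Sdhd).

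Complex III had all 8 members below 0 at both ages. Uqcrb, the subunit that helps form the ubiquinone-binding pocket, had the most negative difference of all 82 members at 2 months. It had 6.20, 6.17 and 5.59 in cardioGRMRdKO hearts at 2 months, against 6.54, 6.74 and 6.97 in dflox hearts, with no overlap. In hearts of 1 month it had 6.21, 6.59 and 6.46 in cardioGRMRdKO hearts and 6.77, 6.83 and 6.36 in dflox hearts, which overlapped. The difference at 2 months was -0.76 (SE 0.201, adjusted p = 0.0956), or 1.69-fold, and the averaged difference was -0.50 (adjusted p = 0.0872), neither of which passed. Uqcrc2, a core subunit, had 7.25, 7.11 and 6.52 in cardioGRMRdKO hearts at 2 months, against 7.29, 7.66 and 7.68 in dflox hearts. The corresponding 1-month values were 7.19, 7.30 and 7.22 in cardioGRMRdKO hearts, against 7.61, 7.65 and 7.31 in dflox hearts. Its groups did not overlap at either age, by a margin of less than 0.1, and it differed by -0.43 on average (adjusted p = 0.117). The Rieske iron-sulfur protein Uqcrfs1, the other core subunit Uqcrc1 and cytochrome c1 (Cyc1) differed by -0.40, -0.38 and -0.35 at 2 months. Uqcrh, the acidic hinge subunit that contacts cytochrome c, has the brightest probe of complex III and the averaged difference nearest 0, at -0.057. A second probe of Uqcrh had -0.255 averaged and -0.324 at 2 months, so its place nearest 0 depends on the probe. Uqcrh had 8.39, 8.22 and 7.74 in cardioGRMRdKO hearts at 2 months, against 8.24, 8.52 and 7.92 in dflox hearts, and 8.18, 8.35 and 8.30 against 8.49, 8.26 and 8.09 in dflox hearts at 1 month. Its groups overlapped at both ages.

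Cycs, which carries electrons between complexes III and IV and triggers apoptosis when released, had 7.46, 7.44 and 6.77 in cardioGRMRdKO hearts at 2 months, against 7.55, 7.63 and 7.83 in dflox hearts. At 1 month it had 7.60, 7.66 and 7.65 in cardioGRMRdKO hearts, against 7.72, 7.71 and 7.59 in dflox hearts. The groups were separate at 2 months and overlapped at 1 month. The difference at 2 months was -0.44 (SE 0.171, adjusted p = 0.253, limma). Other probes of Cycs had -0.24 and -0.19 at that age, so the size of its difference depends on the probe.

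In complex IV the most negative averaged difference was that of Cox7b, a small membrane subunit, at -0.39 (adjusted p = 0.142). Cox7b had 6.60, 6.47 and 5.97 in cardioGRMRdKO hearts at 2 months, against 6.68, 6.96 and 7.15 in dflox hearts, without overlap. Its levels at 1 month were 6.40, 6.70 and 6.57 in cardioGRMRdKO hearts and 6.78, 6.89 and 6.58 in dflox hearts, which overlapped. Cox7c had a more negative difference at 2 months, -0.69 (adjusted p = 0.263), and its hearts spread from 3.79 to 4.97 in the cardioGRMRdKO group and from 4.72 to 5.28 in the dflox group. Cox4i2 had the highest averaged difference of complex IV, 0.24 (adjusted p = 0.711), from levels of -5.53, -5.01 and -5.15 in cardioGRMRdKO hearts at 2 months and -4.29, -5.19 and -6.26 in dflox hearts. At 1 month Cox4i2 had -5.47, -5.23 and -5.44 in cardioGRMRdKO hearts, against -5.49, -6.40 and -5.63 in dflox hearts. Its probe was well above background on 3 of 3 cardioGRMRdKO arrays at each age, but on 2 of 3 dflox arrays at 2 months and 1 of 3 at 1 month, so Cox4i2 passed the filter on dim probes only through the cardioGRMRdKO groups.

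Several complex IV subunits have a heart and muscle isoform and a ubiquitous one, so both were set beside each other. The 3 heart and muscle isoforms, Cox6a2, Cox7a1 and Cox8b, had a median difference of -0.27 at 2 months and -0.17 at 1 month. The 3 ubiquitous isoforms, Cox6a1, Cox7a2 and Cox8a, had -0.27 at 2 months and -0.060 at 1 month. None of the 6 passed, and whether the kinds of isoform differed from each other was not tested. Cox6a2 had 8.45, 8.30 and 7.94 in cardioGRMRdKO hearts at 2 months, against 8.46, 8.56 and 8.68 in dflox hearts, with groups that were separate by less than 0.1. Cox8b had 7.59, 7.51 and 7.14 in cardioGRMRdKO hearts at 2 months, against 7.66, 7.73 and 7.67 in dflox hearts, also without overlap. Cox7a1, the brightest probe of complex IV, had 8.57 and 8.38 in the 2 cardioGRMRdKO hearts with a value at 2 months, against 8.63, 8.75 and 8.55 in dflox hearts, which overlapped. Cox6a2 and Cox8b were thus separate at 2 months by small margins, and Cox7a1 was not. Of the ubiquitous isoforms at 2 months, Cox6a1 had 7.58, 7.11 and 7.33 in cardioGRMRdKO hearts and 7.34, 7.49 and 8.0 in dflox hearts. Cox7a2 had 6.71, 6.59 and 6.09 in cardioGRMRdKO hearts and 6.66, 7.09 and 6.67 in dflox hearts. Cox8a had 6.07, 5.91 and 6.06 in cardioGRMRdKO hearts and 6.05, 6.00 and 6.21 in dflox hearts. All 3 ubiquitous isoforms overlapped between the genotypes at 2 months.

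At 1 month Cox6a2 had 8.18, 8.39 and 8.30 in cardioGRMRdKO hearts, against 8.49, 8.52 and 8.36 in dflox hearts. Cox7a1 had 8.33, 8.42 and 8.45 in cardioGRMRdKO hearts, against 8.61, 8.78 and 8.44 in dflox hearts, and Cox8b had 7.37, 7.57 and 7.50, against 7.63, 7.47 and 7.45 in dflox hearts. All 3 heart and muscle isoforms overlapped between the genotypes at 1 month. Of the ubiquitous isoforms at that age, Cox6a1 had 7.35, 7.61 and 7.65 in cardioGRMRdKO hearts, against 7.80, 7.91 and 7.65 in dflox hearts. Cox7a2 had 6.67, 6.84 and 6.84 in cardioGRMRdKO hearts, against 6.98, 7.04 and 6.5 in dflox hearts. Cox8a had 6.06, 6.33 and 6.20 in cardioGRMRdKO hearts, against 6.26, 6.26 and 6.15 in dflox hearts. The differences of these 3 at 1 month were -0.25, -0.060 and -0.028, and none passed.

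The 10 other paralogs of the chain that were tested had a median of -0.25 at 2 months, with 9 below 0, and -0.14 at 1 month, with 7 below 0. Among them Cox6b2, known as a testis isoform of subunit 6b, had -1.37, -1.54 and -1.29 in cardioGRMRdKO hearts at 2 months, against -1.34, -0.62 and -0.70 in dflox hearts. In hearts of 1 month it had -1.64, -1.87 and -1.69 in cardioGRMRdKO hearts, against -1.78, -1.43 and -1.64 in dflox hearts. Its groups overlapped at both ages, and its difference of -0.51 at 2 months did not pass (adjusted p = 0.226). Its common counterpart Cox6b1 had 4.0, 3.86 and 3.65 in cardioGRMRdKO hearts at 2 months, against 4.0, 4.01 and 4.18 in dflox hearts, and 3.85, 4.05 and 4.10 against 3.98, 4.10 and 3.83 in dflox hearts at 1 month. Cox4i1, the common isoform of subunit 4, had 8.43, 8.24 and 7.91 in cardioGRMRdKO hearts at 2 months, against 8.47, 8.46 and 8.45 in dflox hearts, and 7.74, 8.48 and 8.43 against 8.48, 8.50 and 8.48 in dflox hearts at 1 month. Cox4i1 differed by -0.27 at both ages, and at 1 month the first cardioGRMRdKO heart was the lowest of all 12. Cox7a2l, which takes part in joining complexes III and IV, had 4.25, 4.05 and 4.04 in cardioGRMRdKO hearts at 2 months, against 4.25, 4.33 and 4.31 in dflox hearts. The corresponding 1-month values were 4.14 and 4.03 in the 2 cardioGRMRdKO hearts with a value, against 4.11, 4.09 and 4.04 in dflox hearts. Ndufa4 had 7.30, 7.22 and 6.67 in cardioGRMRdKO hearts at 2 months, against 7.29, 7.46 and 7.25 in dflox hearts, and 7.21, 7.24 and 7.22 against 7.35, 7.51 and 7.19 in dflox hearts at 1 month. None of these passed.

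Complex V held the second member that passed. Atp5d, the delta subunit of the central stalk, had 6.00, 5.96 and 6.11 in cardioGRMRdKO hearts at 2 months, against 6.35, 6.44 and 6.23 in dflox hearts. At 1 month it had 6.19, 6.25 and 6.21 in cardioGRMRdKO hearts, against 6.48, 6.5 and 6.39 in dflox hearts. The groups were separate at each age. Atp5d fell by 0.28 averaged over both ages (SE 0.0652, adjusted p = 0.0390, limma), or 1.21-fold, and its probe lies at chr10:79926336-79926395 of mm7. Atp5g1, 1 of 3 genes for subunit c of the membrane ring, had the most negative averaged difference of complex V, -0.34 (adjusted p = 0.0811). It had 7.64, 7.49 and 7.16 in cardioGRMRdKO hearts at 2 months, against 7.85, 7.93 and 7.81 in dflox hearts, without overlap. Its levels at 1 month were 7.54, 7.61 and 7.69 in cardioGRMRdKO hearts, against 7.93, 7.96 and 7.68 in dflox hearts, which overlapped by 1 heart.

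The other subunit c genes encode the same mature protein and differed less at 2 months, Atp5g2 by -0.18 and Atp5g3 by -0.036. Atp5g3 had 8.16, 8.18 and 7.54 in cardioGRMRdKO hearts at 2 months, against 8.12, 7.79 and 8.07 in dflox hearts, and 8.01, 8.25 and 8.17 against 8.41, 8.11 and 8.33 in dflox hearts at 1 month. Its groups overlapped at both ages. Atp5g2 had 6.85, 6.75 and 6.60 in cardioGRMRdKO hearts at 2 months, against 7.21, 6.76 and 6.78 in dflox hearts, which overlapped, and 6.79, 6.84 and 7.12 against 7.17, 7.18 and 7.10 in dflox hearts at 1 month. The catalytic subunit beta, Atp5b, differed by -0.15 and the stalk subunit gamma, Atp5c1, by -0.12 at 2 months. Other probes of Atp5b had -0.25 and -0.27 at 2 months. Atp5c1, the brightest probe of complex V, had 8.47, 8.39 and 7.78 in cardioGRMRdKO hearts at that age, against 8.37, 8.68 and 7.95 in dflox hearts, and overlapped. In hearts of 1 month it had 8.16, 8.34 and 8.38 in cardioGRMRdKO hearts and 8.52, 8.70 and 7.98 in dflox hearts.

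Heart by heart, 29 of the 69 members with all values had every cardioGRMRdKO heart below every dflox heart at 2 months, where 10.9% of all genes did, and none had every one above, where 6.62% did. At 1 month 13 members were below without overlap, where 9.64% of all genes were, and 1 was above, where 9% were. That member was Cox4i2, which passed the filter only through the cardioGRMRdKO groups. By complex the count at 2 months was 11 of 28 in complex I, 0 of 2 in complex II, 5 of 7 in complex III, 8 of 15 in complex IV, 4 of 16 in complex V and 1 of 1 for Cycs. Of these 69 members 7 were below without overlap at both ages, where 3.17% of all genes were: Ndufv2, Ndufb4, Ndufb7, Ndufb9, Uqcrc2, Uqcr11 and Atp5d. Without the third cardioGRMRdKO heart at 2 months the count was 30 of 69, where 14.6% of all genes were separate, a looser condition with 2 hearts set against 3.

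The second comparison was whether the genotype difference depended on age, and how the members moved between the ages within a genotype. Of the 82 members 76 had a more negative genotype difference at 2 months than at 1 month, with a median change of -0.190. So did 62.7% of all genes, with a median of -0.083. Among the brightest 10% of genes by mean level, members left out, 78.9% did, with a median of -0.134. Of the 65 members in that decile, 42 were below this median. Without the third cardioGRMRdKO heart of 2 months the median over members was -0.052, with 60 below 0. No member and no other gene passed this test (0% of genes passed, limma; 643 genes and 0 members had an unadjusted p under 0.05). In cardioGRMRdKO hearts the median of 2 months minus 1 month was -0.159, with 71 of 82 below 0, against 54.2% of all genes. In dflox hearts it was 0.033, with 30 of 82 below 0, against 42.3% of all genes. The medians over all genes were -0.023 in cardioGRMRdKO hearts and 0.051 in dflox hearts. No member passed in cardioGRMRdKO hearts, where 0.378% of genes passed and 1 member, Cycs, had an unadjusted p under 0.05, as did 2272 of all 18250 genes. None passed in dflox hearts either, where 0.553% of genes passed and 2 members had an unadjusted p under 0.05, as did 2581 of all genes. The 2 age comparisons each share their groups with the genotype comparisons. Without the third cardioGRMRdKO heart at 2 months the median of the age difference in cardioGRMRdKO hearts was -0.0073, and without the slide that held it, slide 1, it was 0.020. The lower level at 2 months than at 1 month in cardioGRMRdKO hearts therefore rested on 1 heart.

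By complex, 2 months minus 1 month in cardioGRMRdKO hearts had medians of -0.21 in complex III, -0.18 in complex V, -0.15 in complex I, -0.14 in complex IV and -0.099 in complex II, and Cycs had -0.41. In dflox hearts the medians lay between -0.023 in complex II and 0.096 in complex IV. Cox6b2 had the most positive age difference in dflox hearts, 0.73 (adjusted p = 0.105), and 0.33 in cardioGRMRdKO hearts.

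Since nearly all members shifted one way by a small amount, the size of the shift depends on how the arrays are put on one scale. Agilent processed signals carry no scaling between arrays, and the cardioGRMRdKO arrays at 2 months had 75th percentiles of 662, 707 and 1079 intensity units, against 810, 583 and 479 on the dflox arrays. With no scaling the median of the members at 2 months was 0.088, and that of all genes was 0.306. Scaling by the array median gave -0.198 for the members and 0.021 for all genes, and centring on the brightest 10% of genes gave -0.182 and 0.037. Quantile normalization gave -0.097 and -0.024, and cyclic loess gave -0.097 and -0.0053, with 59 and 65 of 82 members below 0. The 75th percentile, the array median, the brightest 10% and no scaling differ from each other by a constant per array. Such constants move members and all genes together, so the distance between their medians could hardly change among these scalings. The direction against 0 did change, and flipped with no scaling. Quantile normalization and cyclic loess, which also bend the scale with brightness, could change that distance. Under both it shrank, and the members stayed below all genes.

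**Figure D4:**
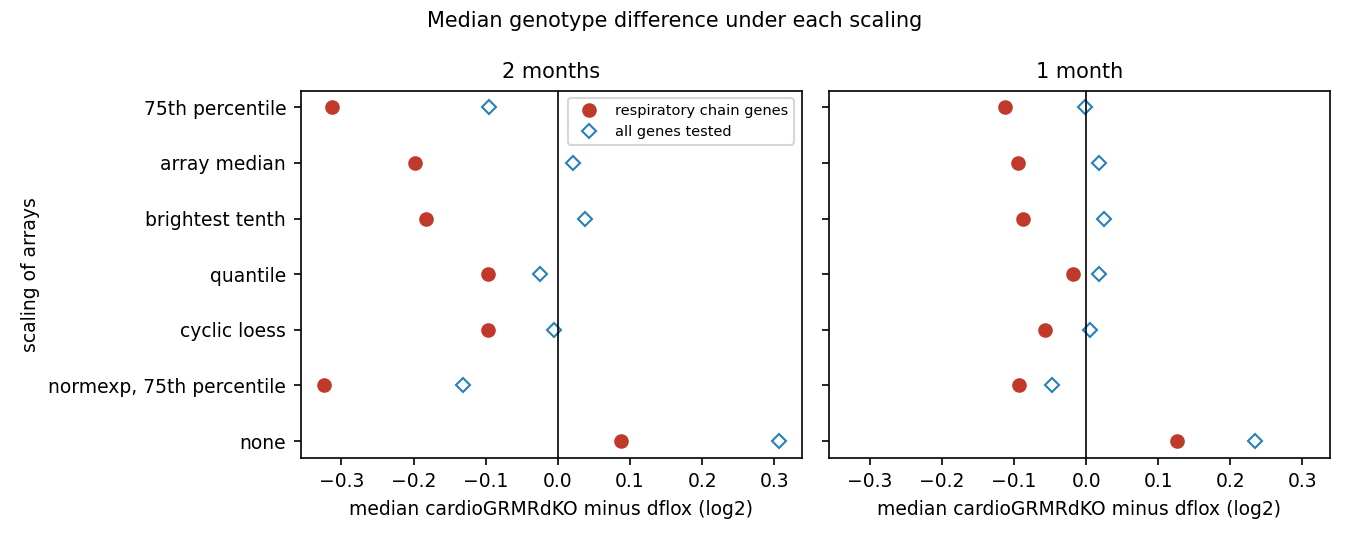
Median difference of cardioGRMRdKO minus dflox (x axis, log2) over the respiratory chain genes (red circles) and over all genes tested (blue diamonds) under each scaling of the arrays (rows), at 2 months (left) and 1 month (right). The circle lies left of the diamond in every row, and right of 0 only with no scaling, at 0.088 at 2 months and 0.126 at 1 month.

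At 1 month the same scalings gave the members -0.095 with the array median, -0.087 with the brightest 10%, -0.018 with quantile normalization, -0.057 with cyclic loess and 0.126 with none. All genes had 0.017, 0.025, 0.018, 0.0053 and 0.234. The difference at 1 month was thus close to 0 after quantile normalization. At 2 months complex III had the most negative median of the 5 complexes under every scaling except quantile normalization, where complex I did.

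The dependence of the shift on brightness was measured directly. At 2 months the median difference of other genes was -0.26 in the dimmest decile, -0.012 and -0.0090 in the 2 middle deciles and -0.16 in the brightest 10% of genes, to which 65 of the 69 members with all values belonged. Against the 1712 other genes of the brightest 10%, 57 of 65 members were below the median of that decile at 2 months, and 53 of 65 were below its median of -0.034 at 1 month. The mean of the members minus the mean of the other genes of the brightest 10% of the same array needs no scaling by a constant. A shift that grows with brightness stays in it, here and by complex below, since the members were brighter than those genes. At 2 months the members averaged 6.32 in cardioGRMRdKO and 6.63 in dflox hearts, and the other genes 4.64 and 4.79. The gap between the means was 1.74, 1.71 and 1.59 in cardioGRMRdKO hearts at 2 months, against 1.84, 1.86 and 1.82 in dflox hearts. The corresponding 1-month values were 1.74, 1.80 and 1.77 in cardioGRMRdKO hearts, against 1.88, 1.86 and 1.82 in dflox hearts. The genotypes did not overlap at either age, with differences of -0.161 at 2 months and -0.084 at 1 month. With 3 hearts per genotype the smallest p of an exact permutation test is 0.1, and no such test was run.

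**Figure D5:**
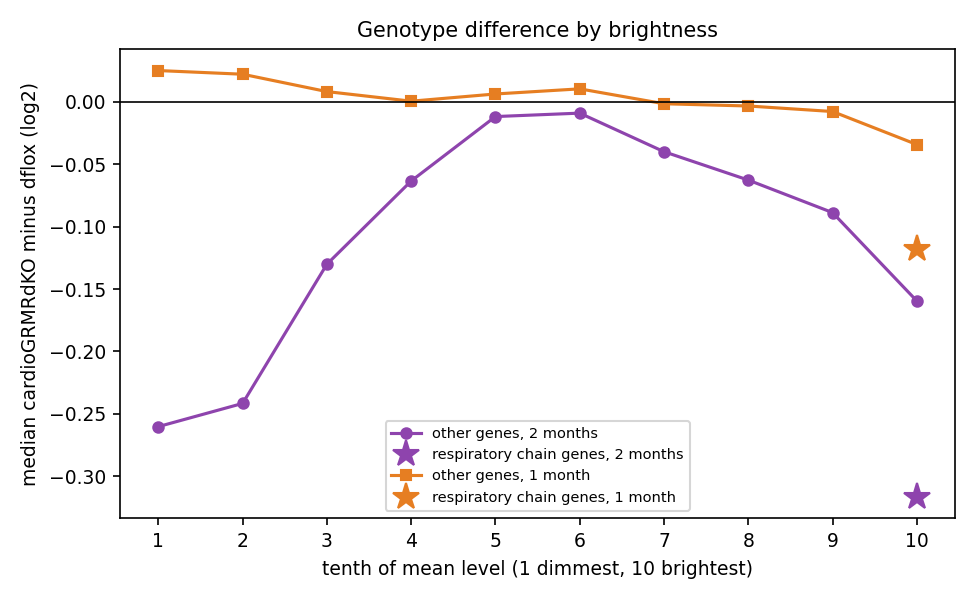
Median difference of cardioGRMRdKO minus dflox (y axis, log2) by decile of mean level (x axis) for genes other than respiratory chain genes (lines, at 2 months and 1 month), and for the 65 respiratory chain genes of the brightest 10% (stars). At 2 months the brightest 10% of other genes is itself at -0.16, and the respiratory chain genes lie lower.

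Set against the brightest 10% in this way, complexes I, III and IV differed by -0.164, -0.268 and -0.176 at 2 months with no overlap between the genotypes. Complex V differed by -0.116 and complex II (Sdha and Sdhc) by 0.073, both with overlap, and Cycs by -0.295 without overlap. At 1 month complexes I, III, IV and V differed by -0.072, -0.158, -0.060 and -0.110 without overlap, and complex II by -0.023 and Cycs by -0.0081 with overlap. Complexes III and IV were separate at 1 month only by a very small margin. The nearest cardioGRMRdKO and dflox hearts had 2.692 against 2.693 for complex III and 0.486 against 0.488 for complex IV. Complex III minus complex V, a contrast inside each array, was 0.18, 0.19 and 0.14 in cardioGRMRdKO hearts at 2 months, against 0.20, 0.37 and 0.40 in dflox hearts. At 1 month it was 0.25, 0.24 and 0.25 in cardioGRMRdKO hearts, against 0.34, 0.34 and 0.20 in dflox hearts. The genotypes were separate at 2 months only by a small margin, 0.195 against 0.201 in the nearest hearts, and overlapped at 1 month. Of the other contrasts with complex III at 2 months, III minus I was also separate, at 0.67, 0.67 and 0.58 in cardioGRMRdKO hearts against 0.68, 0.81 and 0.74 in dflox hearts. Its margin was small too, with 0.669 against 0.676 in the nearest hearts. III minus II, at 2.08, 2.11 and 1.59 in cardioGRMRdKO hearts against 1.94, 2.57 and 2.29 in dflox hearts, overlapped. III minus IV overlapped as well, at 2.21, 2.16 and 1.99 in cardioGRMRdKO hearts against 2.15, 2.29 and 2.19 in dflox hearts.

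The arrays came on 3 slides, each with hearts of both genotypes. Within slide 1 the median of the members at 2 months was -0.547 (1 cardioGRMRdKO heart, the third, and 1 dflox heart), and within slide 3 it was -0.267. Without slide 1 it was -0.203. The values at 1 month were -0.100 and -0.053 in the slides with both genotypes. The 1-month dflox arrays lay at the outer places of their slides and the cardioGRMRdKO arrays at the inner ones, so for 1 month the place on the slide and the genotype cannot be told apart.

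Genes that work with the chain were counted from lists. Of all genes tested, 63.0% were below 0 at 2 months and 50.3% at 1 month. The citric acid cycle and pyruvate dehydrogenase genes, which supply NADH and succinate, had 18 of 20 tested below 0 at 2 months with a median of -0.30, and 16 of 20 at 1 month with a median of -0.12, and none passed. Among 42 assembly factors, which build the complexes, 40 were below 0 at 2 months with a median of -0.23 and 23 at 1 month with -0.017. The 1-month count of assembly factors was near the share of all genes. Cox19, a copper-handling factor of complex IV assembly, rose by 0.63 averaged over both ages (adjusted p = 0.00368, limma) against the direction of most of that list. Of 19 inner membrane carriers and energy transfer genes, 15 were below 0 at each age, with medians of -0.27 at 2 months and -0.098 at 1 month. Ucp2, a mitochondrial carrier of the uncoupling protein family, was the one that passed, with a rise of 1.10 averaged over both ages (adjusted p = 0.00380). Of 10 coenzyme Q synthesis genes 7 were below 0 at 2 months, near the share of all genes, with a median of -0.18, and none passed.

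Regulators of mitochondrial biogenesis had 15 of 20 below 0 at 2 months with a median of -0.27, and 12 of 20 at 1 month with -0.027, and none passed. The 3 with the smallest p were Perm1, a muscle regulator of oxidative genes, at -0.25 averaged over both ages (adjusted p = 0.0607), Klf15, a transcription factor of cardiac metabolism and a known glucocorticoid receptor target, at -0.75 (adjusted p = 0.0761), and Ppargc1a, the coactivator PGC-1α, at -0.59 (adjusted p = 0.138). Mitochondrial ribosomal protein genes had 47 of 49 Mrpl and 24 of 29 Mrps symbols below 0 at 2 months, with medians of -0.21 and -0.22. Mrps35 fell by 0.43 (adjusted p = 0.00579) and Mrpl42 by 0.38 (adjusted p = 0.0321), averaged over both ages. Symbols starting with Rpl had 41 of 51 below 0 at 2 months with a median of -0.15, and those starting with Rps 37 of 43 with -0.16, a list that by name also holds S6 kinases. At 1 month the Rpl and Rps medians were 0.019 and -0.015. Each of these lists thus had a median below 0 at 2 months, as did all genes tested, at -0.095. The medians of the cytosolic ribosomal lists were near that of the other genes of the brightest 10%, -0.16.

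Of 12 cardiomyocyte markers, 11 were below 0 at 2 months with a median of -0.18, and 9 at 1 month with -0.095, and Ryr2, the calcium release channel, fell by 0.38 averaged over both ages (adjusted p = 0.0126, limma). The mean level of the 9 markers with all values was 6.91, 6.76 and 6.51 in cardioGRMRdKO hearts at 2 months, against 6.92, 6.96 and 6.99 in dflox hearts. In hearts of 1 month it was 6.70, 6.84 and 6.84 in cardioGRMRdKO hearts, against 6.93, 6.98 and 6.93 in dflox hearts. Macrophage markers went the other way, with 9 of 10 above 0 at each age and a median of 0.24 at 2 months, and none passed. Their mean level was 1.48, 1.60 and 1.63 in cardioGRMRdKO hearts at 2 months, against 1.28, 1.39 and 1.40 in dflox hearts. Of 9 skeletal muscle markers, 2 rose and 2 fell averaged over both ages, with Mylpf higher by 1.36 (adjusted p = 0.00232) and Acta1 by 1.33 (adjusted p = 0.00913). Tnni2 fell by 0.68 (adjusted p = 0.0229) and Pvalb, named after its value was seen, fell by 1.53 (adjusted p = 0.0243). Of the 9, 6 were below 0 with a median of -0.256. None of the tested endothelial, fibroblast, erythroid, atrial, brown fat or airway markers passed between the genotypes. Brown fat markers, a list that includes the member Cox8b, had 2 of 7 below 0 at 2 months with a median of 0.352, and 7 of 7 at 1 month with -0.756. The mean level of the 6 with all values at 1 month was 0.88, 3.62 and 2.95 in cardioGRMRdKO hearts, against 3.00, 3.38 and 3.13 in dflox hearts, so the first cardioGRMRdKO heart was low and the groups overlapped. Atrial markers had 5 of 7 below 0 at 2 months with a median of -0.013, and 6 of 7 at 1 month with -0.42. The part of these cell types in the lower respiratory chain levels was not tested.

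The members varied together over the hearts. The correlation of each member with the mean of the others over the 12 arrays, which share scaling and groups, had a median of 0.869 and ranged from -0.316 to 0.982, with 64 of 69 above 0.5. No such count was made for other genes, so this is not shown to be particular to the members. The other genes of the brightest 10% also had their lowest mean, 4.46, in the third cardioGRMRdKO heart at 2 months. Outside the members, the genes most like their mean were Sod2 (r = 0.981), the manganese superoxide dismutase of mitochondria, then Cpsf4 (0.969), Apoo (0.967), Mrps31 (0.966) and Rmdn1 (0.956), among 17699 genes over 12 arrays. For the 22 members with several tested probes, the probes of 18 had differences of the same sign at 2 months and those of 10 at 1 month.

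Promoters were read because the members moved together. RefSeq (GRCm38.p6) gave a promoter for 67 of the 83 members. The 250 bases before each start were searched on both strands for the core of the NRF1 site (GCGCANGCG), for an ERR site (AAGGTCA), for the ETS core bound by GABP (CCGGAAG) and for the core of the glucocorticoid response element (ACANNNTGT). A palindromic NRF1 site can match on both strands and then counts as 2 matches. NRF1, the estrogen-related receptors and GABP are known regulators of respiratory chain genes, and GR and MR bind the last motif. The NRF1 core was in 15 of 67 members (22.4%), against 5.86% of 27025 genes with a promoter, and the GABP core in 12 (17.9%), against 7.83%. The ERR site was in 5 members (7.46%), against 4.70%. The glucocorticoid response element core was in 0 of 67 members, against 6.76% of all genes, which says only that these letters are not in these windows. NRF1 matches were in 6 of 32 complex I promoters, 2 of 3 in complex II, 0 of 4 in complex III, 1 of 12 in complex IV, 5 of 15 in complex V and that of Cycs. The promoters of the 2 members that passed are printed first, then those of Cycs, Ndufa8 and Sdha, which hold the NRF1 core and had differences of -0.44, -0.53 and 0.12 at 2 months. Capitals mark NRF1 core matches on either strand, the sequence runs 5′ to 3′ on the gene's strand, and the first of 2 starts is shown for Atp5d.
Ndufv2 (chr17:66101560-66101809, strand minus): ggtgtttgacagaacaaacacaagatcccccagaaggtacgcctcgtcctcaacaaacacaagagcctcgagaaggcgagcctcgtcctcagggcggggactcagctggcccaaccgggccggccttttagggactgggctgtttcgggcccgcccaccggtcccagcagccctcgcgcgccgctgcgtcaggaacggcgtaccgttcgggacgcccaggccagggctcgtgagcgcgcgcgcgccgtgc
Atp5d (chr10:80142025-80142274, strand plus): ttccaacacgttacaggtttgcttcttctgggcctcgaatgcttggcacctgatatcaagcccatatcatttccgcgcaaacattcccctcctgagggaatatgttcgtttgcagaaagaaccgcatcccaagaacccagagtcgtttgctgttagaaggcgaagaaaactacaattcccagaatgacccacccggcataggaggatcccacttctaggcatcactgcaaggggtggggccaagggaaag
Cycs (chr6:50566570-50566819, strand minus): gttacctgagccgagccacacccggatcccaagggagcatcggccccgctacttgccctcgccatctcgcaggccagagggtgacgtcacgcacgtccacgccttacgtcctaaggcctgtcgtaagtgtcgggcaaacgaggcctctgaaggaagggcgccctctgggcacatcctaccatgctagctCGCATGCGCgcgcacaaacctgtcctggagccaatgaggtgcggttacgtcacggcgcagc
Ndufa8 (chr2:36049339-36049588, strand minus): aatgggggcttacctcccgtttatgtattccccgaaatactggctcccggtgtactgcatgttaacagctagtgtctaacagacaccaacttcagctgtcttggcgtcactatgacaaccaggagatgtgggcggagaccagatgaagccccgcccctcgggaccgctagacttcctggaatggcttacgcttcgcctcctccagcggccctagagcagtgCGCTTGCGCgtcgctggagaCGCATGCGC
Sdha (chr13:74350241-74350490, strand minus): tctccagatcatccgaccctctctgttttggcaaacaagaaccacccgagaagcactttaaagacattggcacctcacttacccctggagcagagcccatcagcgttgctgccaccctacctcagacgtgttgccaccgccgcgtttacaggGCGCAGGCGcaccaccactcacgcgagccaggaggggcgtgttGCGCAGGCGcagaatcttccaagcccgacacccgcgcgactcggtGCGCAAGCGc

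Ndufv2 and Atp5d, the members that passed, held none of the 4 motifs in this window. Ndufa8 held the NRF1 core at 2 sites and Sdha at 3, and the genotype difference of Ndufa8 was among the most negative of complex I while that of Sdha was above 0 at 2 months. A match to these letters is a description of the sequence and no measure of binding.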

How the data were processed

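Total RNA of 12 whole mouse hearts was labelled with Cy3 and hybridised to 12 one-colour Agilent arrays on 3 slides. The authors' deposited intensity values are background-subtracted processed signals of Agilent Feature Extraction (9.5 per the submitters' processing notes, 9.5.3.1 per the file headers), with no scaling between arrays. The deposited value table held the same intensities. From them, log2 of the signal minus the array's 75th percentile was computed, outlier spots were left out, and 26970 probes were kept that exceeded background on each of the 3 arrays of some group. The brightest probe stood for a gene. Gene symbols were updated through the RefSeq table of GRCm38.p6, and probe coordinates are those of mm7 in the files.

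The 4 group means were fitted with limma 3.58.1 in R 4.3.3 (two-sided, Benjamini-Hochberg over 18250 genes, threshold 0.05), and the fit was tested on simulated data. The number of arrays limits precision. Alternatives changed the scaling, background correction, filter, probe choice, membership, variance model, slide and replicate terms, and left out hearts and slides. Genes named with every heart's value were the brightest, most raised and most lowered member of each complex in the averaged comparison, every member that passed, and the isoform lists; up to 3 genes of each other list were named by smallest p. Other members given heart by heart, such as Uqcrc2, Ndufb4 and Ndufa8, were chosen after their values were seen. Members and lists were chosen with earlier results of these data known.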

Additional observations from a re-analysis of the deposited data

How the results depend on the processing

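The median over members at 2 months was below 0 in 32 of 33 settings, the exception being no scaling between arrays (0.088). Some settings could not change the median at an age. These were leaving out a heart of the other age, the intensity trend in the variance, and the deposited value table with the same intensities. The replicate block could change it only through members with a missing value, since every replicate number occurs in each group. The median at 2 months moved beyond the pooled spread of the hearts (SD 0.142) with no scaling, quantile normalization (-0.097) and cyclic loess (-0.097). It also did so within slide 1 (-0.547) and without the third cardioGRMRdKO heart of 2 months (-0.164). With 1 heart left out it ranged from -0.405 to -0.164. At 1 month it was below 0 in 32 of 33 settings, with 0.126 under no scaling and -0.180 to -0.074 with 1 heart left out. Averaged over both ages it was 0.117 under no scaling and -0.251 to -0.133 with 1 heart left out. The age-dependence of the genotype difference had a median below 0 in 32 of 32 settings, with -0.025 under cyclic loess, -0.024 under no scaling, -0.429 within slide 1 and -0.289 to -0.052 with 1 heart left out. The age difference in cardioGRMRdKO hearts was -0.502 within slide 1, 0.039 within slide 2, 0.012 within slide 3, 0.020 without slide 1, and -0.261 to -0.0073 with 1 heart left out. That in dflox hearts was -0.046 to 0.085 with 1 heart left out.

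The count of members that passed, averaged over both ages, was 2 and became 1 under cyclic loess, normexp background correction, quantile normalization and slide as a fixed term. It became 3 with the mean over the probes of a gene, and 0 under array median scaling, no filter on dim probes, no scaling, the replicate block, and without slide 1, slide 2 or slide 3, and it was 0 to 2 with 1 heart left out. Ndufv2 passed in 12 of 31 settings and Atp5d in 9 of 31, and Atp5d was at 0.041 under no scaling. The settings without non-subunits and from the deposited value table repeat the main fit, so both genes had to pass there. Counts at 2 months were 1 under quantile normalization (Uqcrb, -0.59, adjusted p = 0.0303) and 0 to 1 with 1 heart left out. In dflox hearts the age count was 0 to 1 with 1 heart left out. At 1 month, for the age difference in cardioGRMRdKO hearts and for the age-dependence, the count stayed 0 with 1 heart left out. Adjusted p-values with the replicate block were 0.0734 for Ndufv2 and 0.0792 for Atp5d. Same-numbered hearts did not deviate together (r from -0.30 to 0.55), so the numbers do not pair them. The centring on the brightest 10%, and the counts without the third cardioGRMRdKO heart of 2 months, were chosen after seeing the data. Signal over background limits only Cox4i2 and Cox8c.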
